A study of Homo sapiens with 7 samples.

Results

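Gene expression of 8 transcription factor genes of epidermal differentiation (TP63, ZNF750, FOXN1, HOPX, MAF, PRDM1, POU2F3 and ELF3) was followed in N/TERT2G cells, a telomerase-immortalized line of human keratinocytes, after loss of YAP1 and TAZ. The genes were taken by symbol, with 1 row per gene, from an RNA-seq table of 16686 gene symbols, of which 13072 reached a mean of 1 and were tested. All 8 were in the table and all 8 passed that filter. Pooled siRNAs against YAP1 and against WWTR1, the gene for TAZ, had been given in 4 libraries, siYT A to D, and a non-targeting siRNA in 3, siCON A to C. Both groups received 8 pmol of siRNA per cm2 with a lipid reagent and were cultures of this single line in EpiLife medium with a growth supplement. RNA was taken 48 h after transfection. YAP1 and TAZ are co-activators that reach DNA through the TEAD factors, and the comparison asks which transcripts depend on them in keratinocytes.

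The epidermis is renewed by basal keratinocytes, which stop dividing, leave the basement membrane and build a cornified barrier as they move up. p63, the product of TP63, is the transcription factor that sets up and maintains stratified epithelium, and in basal cells it is made mostly as the shorter deltaN form, which starts from an internal promoter. In differentiating cells p63 turns on further factors, ZNF750 among them, while FOXN1, MAF, POU2F3, PRDM1 and ELF3 act at successive steps above the basal layer. HOPX is an unusual homeodomain protein that does not bind DNA itself and works through partner factors.

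Both siRNA targets were lower in each siYT library. YAP1 was at 65.2, 64.5, 76.2 and 68.1 in siYT A to D, against 231, 258 and 243 in siCON A to C, in TMM-normalized signal, a scale near CPM on which library factors are set from genes presumed stable. WWTR1 was at 4.90 to 6.30 in siYT and at 34.4 to 37.3 in siCON. Summed signal was 866098 to 884761 in the siYT libraries and 941281 to 955106 in the siCON libraries, and approximately 21300000 to 23900000 reads lay behind the siYT values and 20700000 to 21400000 behind the siCON values. siYT A and B lay closer together than any other pair of replicates, with a root mean square difference of 0.15 on the log2 scale, where the rest of the siYT pairs had 0.18 to 0.21 and pairs of siCON libraries 0.19 to 0.20. Of all genes tested, 3579 (27.4%) were called (adjusted p under 0.05 with 1.5-fold or more), of which 1847 (14.1%) were higher in siYT and 1732 (13.2%) lower. Higher calls were 51.6% of all calls, and 64.6% when libraries were set to equal totals, which raised the median log2 fold change of all genes by 0.11.

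To show where these genes start, stretches of 300 bases from 250 before to 50 after a transcription start are printed for 3 of them. TP63 is shown at its deltaN start, the form that basal keratinocytes use, HOPX because it had the largest change of the 8 genes, and PRDM1 because it was lower in siYT. The TP63 stretch was read from the GRCh37 genome (chr3:189507198-189507497, plus strand), and those of HOPX (chr4:56656468-56656767, minus strand) and PRDM1 (chr6:106098691-106098990, plus strand) are RefSeq promoters on GRCh38.p14. Each is written 5′ to 3′, with matches to the motifs named after the sequences in capitals. HOPX and PRDM1 each have a further start, start 1, which is not printed. In both genes start 1 held fewer matches than the printed start, and HOPX start 1 held none.

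TP63 deltaN start: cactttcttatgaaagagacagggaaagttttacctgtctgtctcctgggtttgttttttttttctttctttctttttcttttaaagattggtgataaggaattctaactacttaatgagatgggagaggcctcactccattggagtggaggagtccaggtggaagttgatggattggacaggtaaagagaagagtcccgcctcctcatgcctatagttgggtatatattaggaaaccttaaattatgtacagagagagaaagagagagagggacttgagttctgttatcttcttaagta

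HOPX start 2: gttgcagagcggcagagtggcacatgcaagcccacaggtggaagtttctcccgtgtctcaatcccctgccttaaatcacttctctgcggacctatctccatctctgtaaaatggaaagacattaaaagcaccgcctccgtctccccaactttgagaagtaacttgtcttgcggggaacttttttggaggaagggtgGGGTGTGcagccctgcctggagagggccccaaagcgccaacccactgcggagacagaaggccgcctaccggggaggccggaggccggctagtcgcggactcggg

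PRDM1 start 2: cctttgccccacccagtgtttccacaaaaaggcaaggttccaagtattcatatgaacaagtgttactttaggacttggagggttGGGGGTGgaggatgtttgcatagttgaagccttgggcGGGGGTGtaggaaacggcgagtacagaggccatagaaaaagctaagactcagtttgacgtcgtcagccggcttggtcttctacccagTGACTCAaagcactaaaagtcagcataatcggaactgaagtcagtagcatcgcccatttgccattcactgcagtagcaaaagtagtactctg

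The RefSeq promoter table held 8 such stretches for 6 of the 8 genes, with none for ZNF750 and POU2F3, and its single TP63 start is the upstream start of the longer TA form. Both strands were searched for the TEAD motif GGAATG, whose reverse complement reads CATTCC, and the KLF motif GGGNGTG, whose reverse complement reads CACNCCC. Also searched for were the AP-1 motif TGANTCA, which reads alike on both strands, and the p63 half-site with the core CATG. The TEAD motif occurred in 0 of the 8 RefSeq stretches and not in the deltaN stretch, against 14% of all 35116 promoters of the table. The KLF motif, present in 30% of all promoters, was found in HOPX start 2, at position −54 from the start, once in PRDM1 start 1, and in PRDM1 start 2 at positions −166 and −129. The AP-1 motif, present in 7.71% of all promoters, was found once, at position −42 of PRDM1 start 2, as TGACTCA. The p63 half-site with the core CATG, at 1.57% of all promoters, was in none of the 9 stretches. Half-sites with another core were not searched for. A match describes letters in these short windows and not a bound site, and the absence of a match describes the windows alone.

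All 8 genes changed in siYT. TP63, ZNF750, FOXN1, HOPX, MAF and POU2F3 were higher, by 1.53-fold (TP63) to 6.53-fold (HOPX), and PRDM1 and ELF3 were lower by 2.14-fold each. The median log2 fold change of the 8 genes was 1.20, against 0.0033 for all genes tested. The siYT and siCON libraries did not overlap for any of the 8, but non-overlap was common, at 68.7% of all genes tested, and the 8 calls of 8 genes stand beside 27.4% called among all genes. The genes were picked with earlier results of these data known, so this count is a description and not a test of the list.

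**Figure D1:**
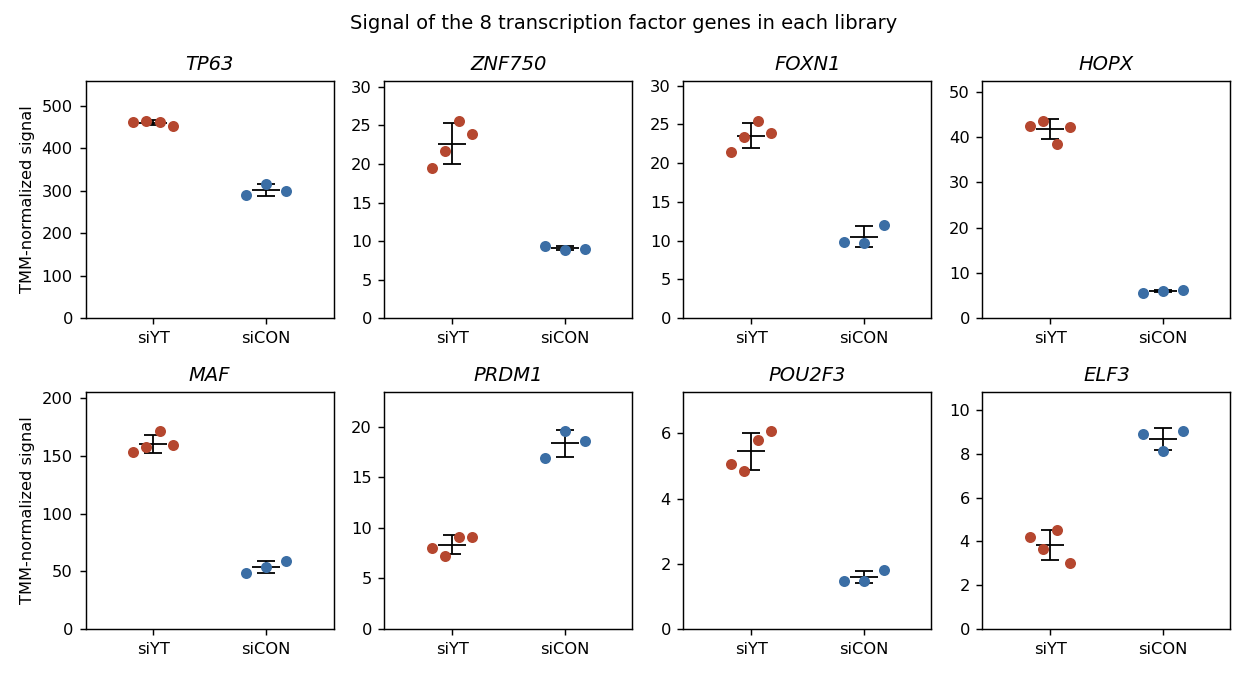
TMM-normalized signal (vertical axes, linear and from 0, a different range in each panel) of the 8 genes in each library, with siYT (4 points) left of siCON (3 points). The long horizontal line is the mean and the bars are 1 SD. In every panel the siYT points and the siCON points are apart, with siYT above siCON except for PRDM1 and ELF3.

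TP63 (chromosome 3, 189349205 to 189615068, plus strand of GRCh37, like all gene positions given) encodes p63 itself. Its signal was 463, 466, 462 and 454 in siYT A to D, against 290.3, 317 and 299 in siCON A to C. The siYT libraries lay close together, with a coefficient of variation of 1.08%, against 4.52% in siCON, and each was above the highest siCON library. The mean was 461 ± 4.98 in siYT (SD, n = 4) and 302 ± 13.6 in siCON (n = 3), 1.53-fold higher in siYT (95% interval 1.42 to 1.64, log2 fold change 0.61 ± 0.05 SE, limma adjusted p = 2.03e-08). TP63 was among the most abundant genes, above 96.8% of all genes tested in siCON, but its change was the smallest of the 8, larger in size than that of 74.3% of genes. It lay close to the fold threshold of 1.5 (0.58 on the log2 scale), and the log2 fold change was 0.58 without siCON A and 0.48 after the trend of fold change on transcript length was removed, under the threshold both times. Values are sums over a gene, so the TA and deltaN forms cannot be told apart.

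ZNF750 (chromosome 17, 80787311 to 80798454, minus strand) encodes a zinc finger protein that lies downstream of p63, turning on differentiation genes and shutting off basal ones. Its signal was 19.5, 21.6, 25.6 and 23.8 in siYT, against 9.41, 8.85 and 9.04 in siCON. Every siYT library had more than the highest siCON library, and siYT C and D were above siYT A and B. ZNF750 averaged 22.6 ± 2.68 in siYT and 9.10 ± 0.284 in siCON, 2.40-fold higher in siYT (2.10 to 2.74, log2 fold change 1.26 ± 0.09 SE, adjusted p = 5.14e-09). Its exons share 222 bases with TBCD on the opposite strand, whose signal was 43.5 to 47.4 in siYT and 57.6 to 60.7 in siCON, lower where ZNF750 was higher. The sources used here do not give the strand setting of the counting, so reads of the shared bases cannot be assigned.

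FOXN1 (chromosome 17, 26833261 to 26865914, plus strand), the forkhead factor lost in nude mice, starts the exit of keratinocytes from the basal layer. Its signal was 21.5, 23.4, 25.5 and 23.9 in siYT, against 9.77, 9.64 and 12.0 in siCON. The lowest siYT library lay well above siCON C, the highest control. FOXN1 averaged 23.6 ± 1.66 in siYT and 10.5 ± 1.35 in siCON, 2.20-fold higher in siYT (1.93 to 2.50, log2 fold change 1.14 ± 0.09 SE, adjusted p = 1.46e-08).

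HOPX (chromosome 4, 57514155 to 57548065, minus strand) had the largest change of the 8 genes, the 21st largest rise of all genes tested. Its signal was 42.5, 43.6, 38.6 and 42.2 in siYT, against 5.67, 6.09 and 6.13 in siCON. The libraries fell into 2 narrow ranges, and even siYT C, the lowest of its group, was far above the highest control. The means were 41.7 ± 2.21 in siYT and 5.96 ± 0.251 in siCON, 6.53-fold higher in siYT on the log2(value + 0.5) scale (5.89 to 7.24, log2 fold change 2.71 ± 0.07 SE, adjusted p = 1.06e-13).

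MAF (chromosome 16, 79619740 to 79634611, minus strand) encodes a large MAF factor of the bZIP class that drives the differentiation program of progenitor keratinocytes. Its signal was 153, 158, 171 and 159.7 in siYT, against 48.9, 53.8 and 59.1 in siCON. All siYT libraries were above the siCON libraries, with siYT C highest. MAF averaged 160.5 ± 7.71 in siYT and 53.9 ± 5.11 in siCON, 2.96-fold higher in siYT (2.70 to 3.25, log2 fold change 1.57 ± 0.06 SE, adjusted p = 9.85e-12).

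POU2F3 (chromosome 11, 120107349 to 120190653, plus strand) encodes a POU homeodomain factor of the suprabasal epidermis, also known as Skn-1a. Its signal was 5.06, 4.86, 5.80 and 6.07 in siYT, against 1.49, 1.48 and 1.81 in siCON. It was the least abundant of the 8 in siCON, above 5.48% of genes tested, with approximately 31 to 40 reads per siCON library and 121 to 165 per siYT library, yet each siYT library was above each siCON library. The means were 5.45 ± 0.577 in siYT and 1.59 ± 0.189 in siCON, 2.84-fold higher in siYT (2.37 to 3.41, log2 fold change 1.51 ± 0.12 SE, adjusted p = 2.83e-08). At this level the constant added before logs counts: the log2 fold change was 1.05 with a constant of 2 and 1.72 with 0.1.

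PRDM1 (chromosome 6, 106534195 to 106557814, plus strand) encodes BLIMP1, a zinc finger repressor found in sebaceous and granular layer cells and needed for proper cornification in mice. Unlike the 6 genes above, it was lower in siYT. Its signal was 8.01, 7.22, 9.06 and 9.10 in siYT, against 16.9, 19.6 and 18.6 in siCON. Every siYT library was under the lowest siCON library, siCON A. PRDM1 averaged 8.35 ± 0.909 in siYT and 18.3 ± 1.32 in siCON, 2.14-fold lower in siYT (1.86 to 2.45, log2 fold change −1.09 ± 0.09 SE, adjusted p = 4.72e-08).

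ELF3 (chromosome 1, 201977073 to 201986316, plus strand) encodes an epithelial ETS factor that activates late genes such as SPRR2A. Its signal was 4.19, 3.65, 4.51 and 2.998 in siYT, against 8.92, 8.12 and 9.04 in siCON. The siYT libraries all lay under the siCON libraries, but they were the most variable of the 8 genes, with a coefficient of variation of 17.3%, against 5.77% in siCON. The means were 3.84 ± 0.664 in siYT and 8.69 ± 0.501 in siCON, 2.14-fold lower in siYT (1.78 to 2.56, log2 fold change −1.10 ± 0.12 SE, adjusted p = 1.02e-06). ELF3 shares 664 exon bases with an antisense RNA, ELF3-AS1, not analysed here, so these values hold the reads of both if strand was not used. It also shares 664 exon bases with a long non-coding RNA on its own strand, ENSG00000249007, whose reads strand could not separate.

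**Figure D2:**
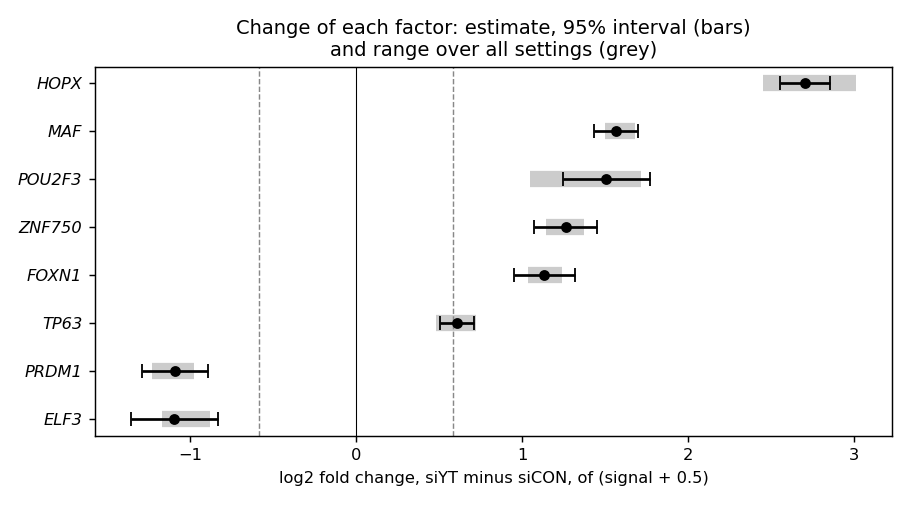
Log2 fold change of siYT minus siCON of each gene on the log2(value + 0.5) scale (horizontal axis). Points are estimates, bars 95% intervals, grey bands the range over the main and up to 17 other ways of processing, and dashed lines the 1.5-fold threshold. HOPX (2.71) lies furthest to the right, TP63 (0.61) sits on the upper threshold, and PRDM1 (−1.09) and ELF3 (−1.10) lie to the left of the lower one.

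Per kilobase of the representative transcript, TP63 led in both groups, followed by MAF and HOPX. The order depends on the transcript chosen: that of HOPX has 1123 bases, while all its exons cover 7730. Without division by length HOPX was at 5.96 in siCON, under PRDM1, FOXN1, ZNF750 and ELF3. In siYT the signal per kilobase was 93.3 for TP63, 60.1 for MAF and 37.2 for HOPX, then 7.17 for ZNF750 and 6.69 for FOXN1, whose ranges over libraries overlapped, and 1.78 for POU2F3, 1.62 for PRDM1 and 1.24 for ELF3, each overlapping its neighbour. In siCON it was 61.1 for TP63, 20.2 for MAF and 5.31 for HOPX. There PRDM1 (3.56), FOXN1 (2.98), ZNF750 (2.88) and ELF3 (2.80) followed, each overlapping the next, and POU2F3 came last at 0.52. PRDM1 and ELF3 thus came last per kilobase in siYT, and the range of POU2F3, apart from all others in siCON, overlapped that of PRDM1 there. Among the siYT libraries, C and D were both above A and B for 5 of the 8 genes (ZNF750, FOXN1, MAF, PRDM1 and POU2F3) and both below for TP63 and HOPX. With A and B averaged as 1 library all 8 genes were still called.

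The relatives of the 8 genes did not share their direction throughout. TP73, a close relative of TP63, was higher in siYT, at 27.1 ± 1.35 in siYT and 16.4 ± 0.601 in siCON (log2 fold change 0.70 ± 0.07 SE, adjusted p = 1.44e-07). Within a library the log2 ratio of TP63 to TP73 signal was 4.02 to 4.15 in siYT and 4.05 to 4.23 in siCON, with overlap.

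Among the other forkhead genes of the FOXN group, FOXN3 was higher in siYT (88.3 ± 10.4 in siYT, 47.0 ± 1.02 in siCON, log2 fold change 0.90) and FOXN2 lower (21.1 ± 0.689 in siYT, 34.4 ± 1.90 in siCON, log2 fold change −0.69). Of the small MAF genes, which lack an activation domain, MAFG was higher (0.63), MAFF was lower (−0.83), and MAFK was not called (−0.16, adjusted p = 0.111). POU2F2 was higher in siYT by 0.87 on the log2 scale, with means of 34.4 in siYT and 18.6 in siCON, and POU2F1 was not called (0.49, adjusted p = 0.000206).

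Of 15 other ETS factors tested, 3 were higher in siYT (ELK3, ELF4 and EHF, at 0.62 to 0.66 on the log2 scale), 3 were lower (ETS1, FLI1 and ETS2) and 9 were not called, with a median of 0.23. ETS1, which holds keratinocytes back from cornification in mice, had the largest change of them, at 29.5 ± 2.85 in siYT and 147 ± 9.12 in siCON (log2 fold change −2.30 ± 0.07 SE, adjusted p = 6.01e-13). EHF, like ELF3 an ETS factor of epithelia, moved the other way from ELF3, at 139 ± 3.28 in siYT and 90.3 ± 4.87 in siCON, and the log2 ratio of ELF3 to EHF signal was −5.36 to −4.76 in siYT and −3.47 to −3.19 in siCON. Of 6 other PRDM genes tested, PRDM10 (0.65) and PRDM2 (0.61) were higher, 4 were not called and none was lower. The ETS and PRDM counts stand beside 14.1% called higher and 13.2% lower among all genes tested. PRDM1 was the lowest of its family in fold change, while ELF3 lay above ETS1.

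**Figure D3:**
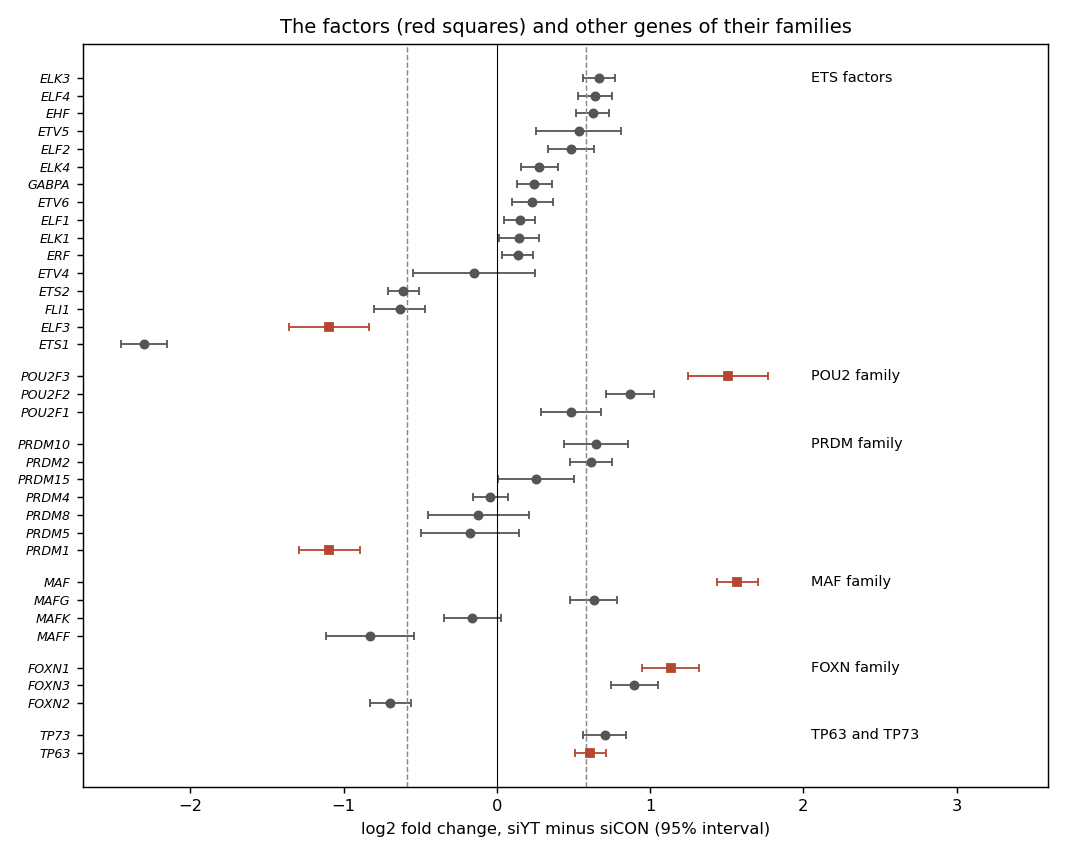
Log2 fold change of siYT minus siCON (points, with 95% intervals as bars) of 6 of the 8 genes (red squares: TP63, FOXN1, MAF, PRDM1, POU2F3 and ELF3) and of other genes of their families (grey). Dashed lines mark 1.5-fold. ETS1 (−2.30) lies furthest to the left, and in the MAF, PRDM and ETS families genes stand on both sides of 0.

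Of 21 genes known as p63 targets in keratinocytes that were tested, 6 were higher in siYT (SATB1, NECTIN1, CLCA2, DLX3, JAG2 and ITGA6), 2 were lower (ITGB4 and DST) and 13 were not called, with a median of 0.24, where 14.1% of all genes tested were called higher and 13.2% lower. SATB1, a chromatin organizer, was at 27.4 ± 2.84 in siYT and 3.71 ± 0.234 in siCON (log2 fold change 2.73, adjusted p = 1.08e-12), and NECTIN1, a cell adhesion protein, at 383 ± 13.4 in siYT and 194 ± 10.1 in siCON (0.98, adjusted p = 1.91e-10). CLCA2, a membrane protein of stratified epithelium, was at 1017 ± 60.5 in siYT and 527 ± 33.1 in siCON (0.95, adjusted p = 2.25e-09). The keratin pair of basal cells in that list was not called: KRT5 was at 22323 ± 1240.1 in siYT and 20952 ± 290.2 in siCON (0.09, adjusted p = 0.495), and KRT14 at 8187 ± 642 in siYT and 9327 ± 332 in siCON (−0.19, adjusted p = 0.0815). KRT15, a further basal keratin, from the list of keratinocyte markers, was higher in siYT, at 1697 ± 75.8 in siYT and 175 ± 10.4 in siCON (log2 fold change 3.27, adjusted p = 1.97e-15).

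Of 12 partners and regulators of p63, HIPK2, a kinase (1.21), and KLF5, a zinc finger factor (0.72), were higher in siYT. The other 10 were not called, and the median was 0.16. The counts of this list and the next stand beside 14.1% called higher and 13.2% lower among all genes tested. Of 8 partners and effectors of ZNF750, TINCR, a long non-coding RNA of differentiation, and KLF4, which works with ZNF750 on differentiation genes, were higher and 6 were not called. TINCR was at 74.3 ± 6.84 in siYT and 31.8 ± 1.15 in siCON (1.21, adjusted p = 3.28e-10), and KLF4 at 181 ± 18.4 in siYT and 79.2 ± 0.333 in siCON (1.19, adjusted p = 3.23e-10). The repressor partners that ZNF750 uses on basal genes were not called. KDM1A (0.31), RCOR1 (0.17) and CTBP1 (−0.22) had a limma adjusted p under 0.05 but changed less than 1.5-fold. CTBP2 (−0.01) had an adjusted p of 0.924. The median of that list was 0.08 and turned to −0.04 with the length trend removed. Within a library the log2 ratio of ZNF750 to KLF4 signal was −3.09 to −2.81 in siYT and −3.09 to −3.0 in siCON, with overlap.

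Of 22 other transcription factors of the epidermis that were tested, 9 were higher in siYT (14.1% of all genes were), 2 were lower (SOX9 at −0.85 and OVOL2 at −0.83, where 13.2% of all genes were) and 11 were not called, with a median of 0.45. The lists overlap, and KLF4, KLF5, DLX3 and EHF, among these 9, were also counted in lists above. DLX5, a homeobox factor, was at 14.4 ± 1.02 in siYT and 4.02 ± 0.61 in siCON (log2 fold change 1.73, adjusted p = 7.09e-10). GRHL1, a grainyhead factor of desmosome genes, was at 30.8 ± 0.288 in siYT and 11.4 ± 1.96 in siCON (1.41, adjusted p = 1.78e-09). CEBPA was higher by 1.25 on the log2 scale at a low level, with 4.88 ± 1.34 in siYT and 1.93 ± 1.35 in siCON.

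The genes that PRDM1 is known to repress, mostly from lymphocytes, did not move one way. Their counts stand beside 14.1% called higher and 13.2% lower among all genes tested. Of 4 tested, BCL6 (76.5 ± 14.7 in siYT, 32.3 ± 2.07 in siCON, log2 fold change 1.21) and FOS (53.2 ± 3.89 in siYT, 26.7 ± 1.34 in siCON, 0.98) were higher in siYT, MYC was lower (99.5 ± 9.59 in siYT, 200.3 ± 8.19 in siCON, −1.01) and ID3 was not called (0.29).

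Genes of the late differentiation list, which mark layers from the first suprabasal one upward, were called in both directions. Of 19 tested, 11 were higher in siYT, 3 were lower and 5 were not called, with a median of 1.14. KRT10, the keratin of the first suprabasal layer, was at 1490 ± 189 in siYT and 137 ± 30.6 in siCON (log2 fold change 3.45, adjusted p = 1.81e-12), DSC1, a desmosomal cadherin, was higher by 3.18 and SPRR1A, a cornified envelope precursor, by 3.06. SPRR2A was at 1.23 ± 0.309 in siYT and 11.9 ± 0.958 in siCON (−2.85, adjusted p = 1.05e-10), while SPRR1B, like SPRR1A, was higher (0.66). Whether the level of SPRR2A depends on that of ELF3 was not tested. TGM1, the enzyme that crosslinks the envelope, was at 28.8 ± 3.53 in siYT and 97.8 ± 8.96 in siCON (−1.75), and SCEL, another envelope precursor, at 7.35 ± 1.10 in siYT and 21.1 ± 0.840 in siCON (−1.47). Over the 12 lists of relatives, partners and targets, 108 of 117 genes other than the 8 were tested, of which 37 were higher in siYT and 13 lower, beside 14.1% higher and 13.2% lower among all genes tested.

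**Figure D4:**
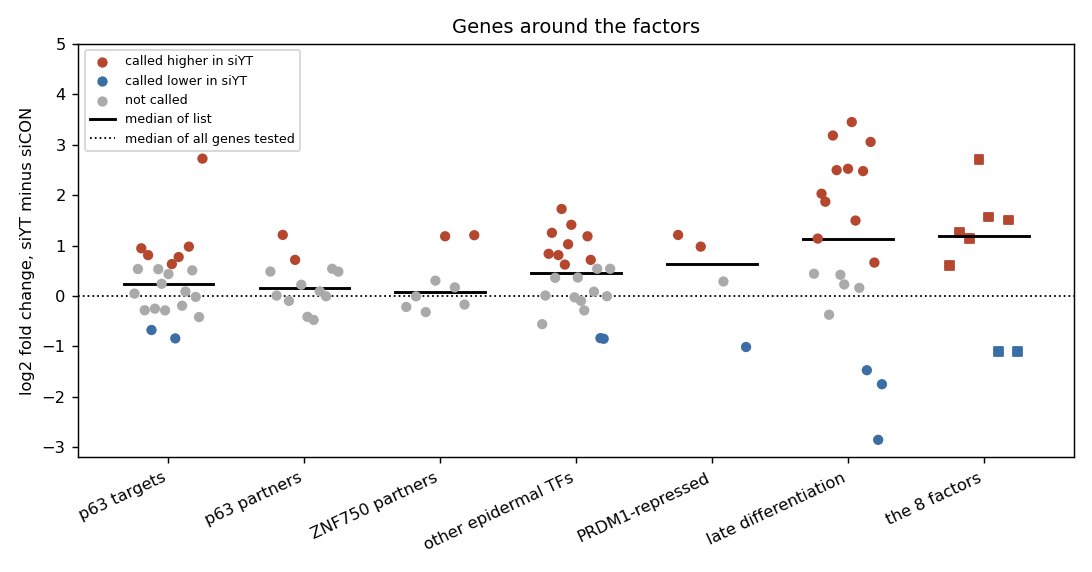
Log2 fold change of siYT minus siCON (vertical axis) of each tested gene (points) in 6 lists around the factors and of the 8 factors themselves (squares). Red marks genes called higher in siYT, blue lower and grey not called, black lines list medians and the dotted line the median of all genes. The late differentiation genes spread from −2.85 (SPRR2A) to 3.45 (KRT10), and the p63 partners have a median of 0.16.

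For each of the 8 genes the gene with the most similar pattern over the 7 libraries was taken from 10763 genes with a mean of at least 5, by the root mean square difference of log2 values after each gene's siCON mean was subtracted. The closest was ENAH for TP63 (0.0106), an actin regulator at 258, 258, 257 and 254 in siYT and 159, 177 and 165 in siCON. Both genes had a small excess in siCON B, which was part of the measure used to choose ENAH. The others were PLEKHA7 for ZNF750 (0.066), RAPGEFL1 for FOXN1 (0.064), SATB1 for HOPX (0.099), SLC6A20 for MAF (0.046), CRIM1 for PRDM1 (0.047), COL7A1 for POU2F3 (0.046) and HYI for ELF3 (0.082). SATB1, the p63 target with the largest change, was at 25.9, 26.3, 25.8 and 31.7 in siYT and 3.51, 3.64 and 3.97 in siCON. These are the nearest of many candidates over libraries that share their depth and preparation, and they describe a pattern alone.

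Markers of other cell types were looked at because several of the 8 genes are also used outside the epidermis. Counts of called markers stand beside 14.1% called higher and 13.2% lower among all genes tested. The 9 keratinocyte markers were all tested, 5 of them higher in siYT, with a summed signal of 41324 to 45068 in siYT and 37219 to 38437 in siCON. Of 4 markers of simple epithelium 2 were tested, KRT8 and KRT18, both lower in siYT. The sum over the 4 was 236 to 272 in siYT and 484 to 566 in siCON. KRT7 (0.15 in siYT, 1.23 in siCON) and KRT19 (0.29 in siYT, 0.27 in siCON) were under the filter. For tuft cells, which POU2F3 specifies, 2 of 5 markers had values, with a sum of 4.20 to 4.90 in siYT and 1.90 to 2.43 in siCON that came mostly from ASCL2, while TRPM5, GFI1B and CHAT were not analysed here. The sums were 188 to 194 in siYT and 233 to 261 in siCON for fibroblast markers (6 of 8 with values, 1 higher and 3 lower), 1.98 to 2.86 in siYT and 2.69 to 3.23 in siCON for melanocyte markers (2 of 7, none called) and 47.2 to 58.0 in siYT and 45.5 to 51.4 in siCON for leukocyte markers (1 of 5, CD68). For endothelium (2 of 4) the sum was 22.5 to 32.95 in siYT and 3.17 to 4.10 in siCON, nearly all from KDR. The part of these genes in the changes of the 8 factors was not tested, and in bulk RNA more cells that express a factor cannot be told from more of its RNA per cell.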

How the data were processed

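RNA-seq of polyadenylated RNA was made from 7 libraries (TruSeq). The submitters' processing notes list cutadapt 1.18, the genome build hg19 (GRCh37), STAR 2.6.1 and Partek 8.0.19.0819, while the methods name Trimmomatic and another Partek release. The deposited values are a TMM-normalized signal per gene, made by the authors, and 82.3% of low values, in units of the smallest value of the library, came within 0.05 of a whole number, too few to recover reads, so no count model was fitted. A second table holds the authors' own comparison (p, q, ratio, fold change, group means) and was not used. Whether counting used strand: not given in the sources used here. Approximate reads of a gene are its value over the lowest value of the library, less 1. Those of a library are its summed signal over that lowest value. Both cover counting error only and assume the lowest value to be near the signal of 1 read.

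The table had 18478 rows, from which 1792 repeats with equal values were dropped. Genes with a mean of at least 1 were tested on log2(value + 0.5) with limma 3.58.1 (R 4.3.3, mean-variance trend, no covariate, all 7 libraries) and Benjamini-Hochberg adjustment over all of them. Calls needed an adjusted p under 0.05 and 1.5-fold, the thresholds of the study. Fold changes on this scale understate low genes. The fit was tested on simulated data. Replicates carry letters only, and wells may come from 1 plating, so a p-value reflects the spread between these 7 samples alone, possibly a technical one. The labels give no batch. The members and lists were chosen with earlier results of these data known. Named genes were the 8 members, YAP1, WWTR1 and TP73, up to 3 called genes with the largest change per list (or its 2 most abundant genes), and the gene most like each member. Other genes named, and the pairs of genes set in a ratio, were chosen after their values were seen. NECTIN1 is listed under its older symbol PVRL1. List genes without a matching symbol, 25 in all, were not analysed here. Values of some genes that the rule or the lists hold are not reported here. Transcript lengths come from GENCODE v44 on GRCh37. Other settings varied the constant, the filter, the scaling, the trend, a replicate block, the length trend and the libraries used.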

Additional observations from a re-analysis of the deposited data

How the results depend on the processing

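All 8 genes kept their direction in every setting in which they were tested, and 7 kept their call. TP63 missed the fold threshold, with its adjusted p still under 0.05, without siCON A (log2 fold change 0.58, adjusted p = 4.31e-07) and with the length trend removed (0.48, adjusted p = 2.42e-07), where the cause was not tested. POU2F3 was not tested at a minimum mean of 5. Log2 fold changes ran from 0.48 to 0.72 for TP63, 1.15 to 1.37 for ZNF750, 1.04 to 1.24 for FOXN1, 2.46 to 3.02 for HOPX, 1.5 to 1.68 for MAF, 1.05 to 1.72 for POU2F3, −1.23 to −0.98 for PRDM1 and −1.17 to −0.88 for ELF3. All calls numbered 2814 to 4001. The letters A to C occur in both groups. Same-letter deviations correlated at 0.16, 0.03 and 0.18, and those of different letters at −0.21 to 0.18. These values do not settle whether letters mark pairs, and the samples were not taken as paired. With the letter as a replicate block, 3528 genes were called, 3427 of them shared with the fit without it, and all 8 factors were among those called. Letter D occurs in siYT only, so siYT D had no weight in that comparison. The log2 fold changes of the 8 genes equalled those without siYT D, so these are not separate checks of the estimates. Some medians of lists of relatives turned sign. With the length trend removed, that of PRDM genes other than PRDM1 went from 0.11 to −0.02. The median of the 2 FOXN genes tested other than FOXN1, FOXN3 (higher) and FOXN2 (lower), went from 0.10 to −0.07, the midpoint of opposite changes. Setting libraries to equal totals also turned the sign of some medians. The lowest values, those of POU2F3 and ELF3, rest on the fewest reads.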
